A study of Mus musculus with 6 samples.

Results

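A set of 10 genes of the oligodendrocyte precursor and of its first steps toward a myelinating cell was followed in chronic stroke infarcts. The genes were chosen by name, but with earlier results of these data known, as were the lists set beside them. They are *Pdgfra*, *Olig1*, *Olig2*, *Sox10*, *Gpr17*, *Bcas1*, *Enpp6*, *Nkx2-2*, *Lhfpl3*, and *C1ql1*, 10 of the 46078 genes counted. All 10 passed the filter on low counts. Bulk RNA was sequenced from 3 infarcts and 3 equivalent regions of the contralateral cortex, 7 weeks after stroke. The mice were wild-type males of the C57BL/6J strain, with a recorded age of 3 months, and the labels name no treatment other than stroke. Stroke was made by permanent occlusion of the distal middle cerebral artery followed by hypoxia, so the contralateral cortices also came from mice that had had a stroke and had breathed low oxygen. The border of each dissected infarct was judged by sight, and infarcts in this model reach the corpus callosum, a tract rich in oligodendrocytes, whose share in each sample is not recorded. Nothing in the records ties an infarct to the contralateral cortex of the same mouse or says that each sample came from a separate mouse, and *p* values measure the spread between these samples only.

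Oligodendrocytes, which wrap axons in myelin, arise from precursor cells that remain in the adult brain and can divide after injury. PDGF acting on the receptor PDGFRα drives division of the precursors, the transcription factors OLIG1, OLIG2, SOX10 and NKX2-2 set and advance the lineage, and *Gpr17*, *Bcas1* and *Enpp6* mark cells between the precursor and the mature oligodendrocyte. Several of these genes are used outside the lineage as well. *Pdgfra* is a standard gene of fibroblasts, and *Sox10* is required in Schwann cells, the myelinating cells of peripheral nerve.

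Promoter sequence is shown for the 3 members whose upstream window lay wholly outside their annotated exons, so that members called higher (*Enpp6* and *Pdgfra*) can be read beside one that was not (*Lhfpl3*). The RefSeq promoter table on GRCm38.p6 held 5 of the 10 members. Each run covers the 250 bases before the annotated start, read 5′ to 3′ on the plus strand, on which all of them lie. Capitals mark ACAAT on either strand, a short core bound by SOX proteins.

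*Pdgfra*, chr5:75152001-75152250: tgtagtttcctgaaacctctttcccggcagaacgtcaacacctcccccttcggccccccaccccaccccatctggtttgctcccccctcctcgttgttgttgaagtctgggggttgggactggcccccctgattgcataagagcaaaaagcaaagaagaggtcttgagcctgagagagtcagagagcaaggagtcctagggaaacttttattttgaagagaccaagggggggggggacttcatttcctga

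*Enpp6*, chr8:46986637-46986886: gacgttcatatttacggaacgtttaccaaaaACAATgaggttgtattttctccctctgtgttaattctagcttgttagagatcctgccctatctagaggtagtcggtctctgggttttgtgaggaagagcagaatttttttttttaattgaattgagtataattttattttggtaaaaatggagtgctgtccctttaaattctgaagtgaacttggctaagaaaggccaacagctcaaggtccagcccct

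*Lhfpl3*, chr5:22745804-22746053: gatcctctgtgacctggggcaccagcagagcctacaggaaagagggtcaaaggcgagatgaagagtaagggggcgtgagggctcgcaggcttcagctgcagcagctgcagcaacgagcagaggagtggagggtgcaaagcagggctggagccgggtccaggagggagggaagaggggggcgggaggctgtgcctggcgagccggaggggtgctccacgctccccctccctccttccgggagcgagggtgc

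The ACAAT core began at position -219 from the start of *Enpp6*, and the windows of *Pdgfra* and *Lhfpl3* held none. It was not particular to a called member. The windows of *Olig2* and *Nkx2-2*, not printed here, also held it, at -67 and -229, and neither gene was called. The longer core ACAAAG was in none of them on either strand. CANNTG, the E-box read by OLIG proteins and many other factors, occurred 1 time in *Pdgfra*, 2 times in *Lhfpl3* and 0 times in *Enpp6*. Among 32851 promoters of this length, 27.7% held ACAAT, 16.5% held ACAAAG and 66.2% held CANNTG on either strand. A match is only a match of letters, and no binding was measured here.

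Libraries held between 11943570 and 19933962 counts on genes, and the infarcts 12146959 to 13427057. Expression is given as CPM, the share of a library's counts on a common scale, after TMM scaling. A gene was called higher or lower where its fold change passed 2 and its adjusted *p* lay under 0.05. Every adjusted *p* below is from the quasi-likelihood test of edgeR, with the Benjamini-Hochberg method applied over 15554 tested genes. As a check of the regions, 8 of 8 neuron markers were lower in the infarcts, where their summed level was 481 to 1306 CPM, compared with 7495 to 8574 CPM in the contralateral cortices. Of the 8 microglia and macrophage markers, 7 were higher. Of the 8 astrocyte markers, 2 were higher and 2 were lower.

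Of the 10 genes, 3 were higher in the infarcts, the receptor gene *Pdgfra*, the newly formed oligodendrocyte gene *Enpp6*, and *C1ql1*, and 0 were lower. Over all tested genes, 25.7% were called higher and 20.9% lower, or 46.6% in either direction. The same shares apply to the counts of called markers of other cell types below. By adjusted *p* alone, without the fold change threshold, *Sox10* and *Bcas1* were also higher, which makes 5 of 10 against 34.2% of all genes, and 0 were lower against 30.8%, or 65.0% in either direction. At an unadjusted *p* under 0.05 in edgeR, 1 member, *Olig2*, was lower. The share of all genes at that threshold was not counted. DESeq2 and limma voom called 0 members lower. The same 5 genes had all infarct libraries above all contralateral libraries, as did 37.6% of all genes, and for the other 5 the regions overlapped, as for 27.7%. The median log2 fold change was 0.37 over the 10 genes and 0.03 over all tested genes. In bulk tissue, a change in the number of cells of a type and a change in RNA per cell cannot be told apart.

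**Figure D1:**
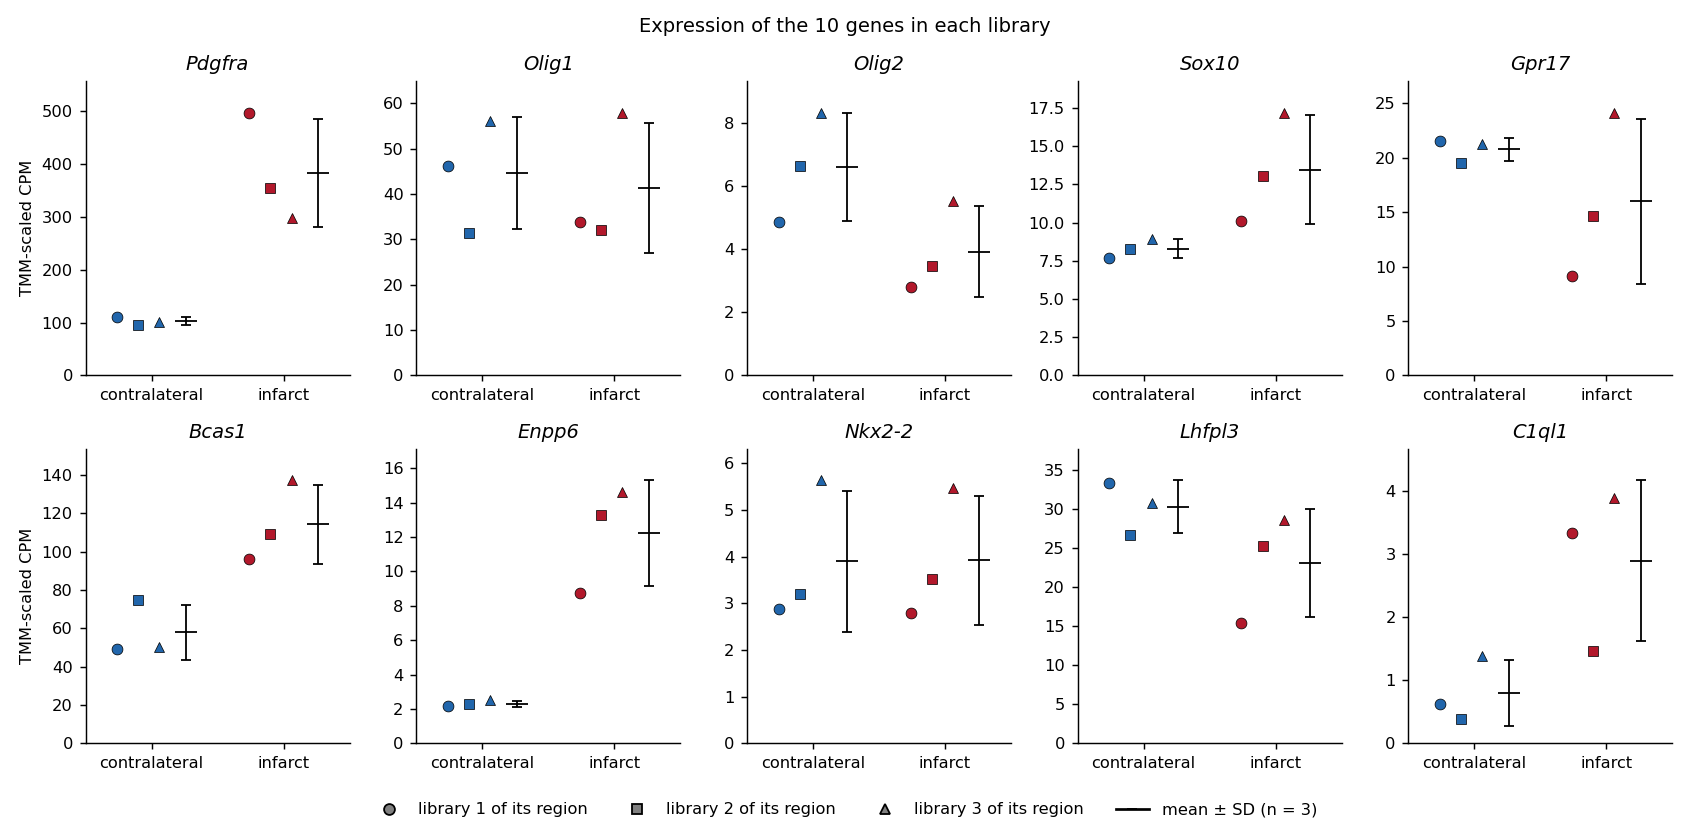
TMM-scaled CPM of each of the 10 genes in every library, with contralateral cortices in blue, infarcts in red, symbols for the library number and bars for the mean ± SD of 3 libraries. *Enpp6*, at 8.76 CPM or more in every infarct and 2.49 CPM or less in every contralateral cortex, separates the regions, whereas the libraries of *Olig1* and *Nkx2-2* overlap.

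*Pdgfra* (ENSMUSG00000029231, GRCm38 chromosome 5, 75152292 to 75198215, plus strand), which encodes the receptor for PDGF-AA, had 497, 355 and 298 CPM in infarct libraries 1, 2 and 3 and 111, 95.2 and 101 CPM in contralateral libraries 1, 2 and 3. Every infarct was far above every contralateral cortex, and infarct 1 was the highest. Between the regions, the log2 fold change was 1.90 with a standard error of 0.20 (adjusted *p* = 2.87e-05), a 3.74-fold difference (95% interval 2.73 to 5.14). The log2 value stayed between 1.69 and 2.10 in 16 alternative analyses, and the gene was called in each. *Pdgfra* was the only member whose highest infarct was not infarct 3.

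Fibroblast markers were higher in the infarcts as well. All 11 tested markers of 12 were called higher, with a median log2 fold change of 5.49. Their summed level was 8428, 8905 and 7215 CPM in infarct libraries 1, 2 and 3, compared with 135 to 180 CPM in the contralateral cortices. *Pdgfrb*, the related receptor of fibroblasts and pericytes, had 242, 148 and 134 CPM in infarct libraries 1, 2 and 3. In the contralateral cortices it had 26.1 to 30.8 CPM. The highest infarct differed between the markers. It was infarct 1 for *Pdgfrb*, as for *Pdgfra*, infarct 2 for *Col3a1* (2274, 3423 and 2260 CPM) and infarct 3 for *Col1a1* (1191, 1236 and 1258 CPM). Of 7 tested pericyte and smooth muscle markers, 5 were higher, with summed levels of 468 to 619 CPM and 242 to 320 CPM. Per 1000 CPM of the fibroblast markers, a sum carried mostly by *Col1a1*, *Col1a2*, *Col3a1* and *Dcn*, *Pdgfra* had 59.0, 39.8 and 41.3 CPM in the infarcts and 563 to 723 CPM in the contralateral cortices, whereas 1 marker, *Slc6a13*, had a lower fold change (2.83) than *Pdgfra* (3.74). The part of fibroblasts in the level of *Pdgfra* was not tested. *Cspg4*, another surface gene of precursors that pericytes also use and that was chosen here after its values were seen, had 25.3 ± 3.54 CPM in the infarcts and 20.7 ± 4.59 CPM in the contralateral cortices (SD, n = 3), a log2 fold change of 0.29 (adjusted *p* = 0.248). Ratios within a library do not depend on scaling. *Pdgfra* had 23.2, 13.6 and 10.5 counts per count of *Cspg4* in the infarcts and 4.35 to 6.17 in the contralateral cortices.

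**Figure D2:**
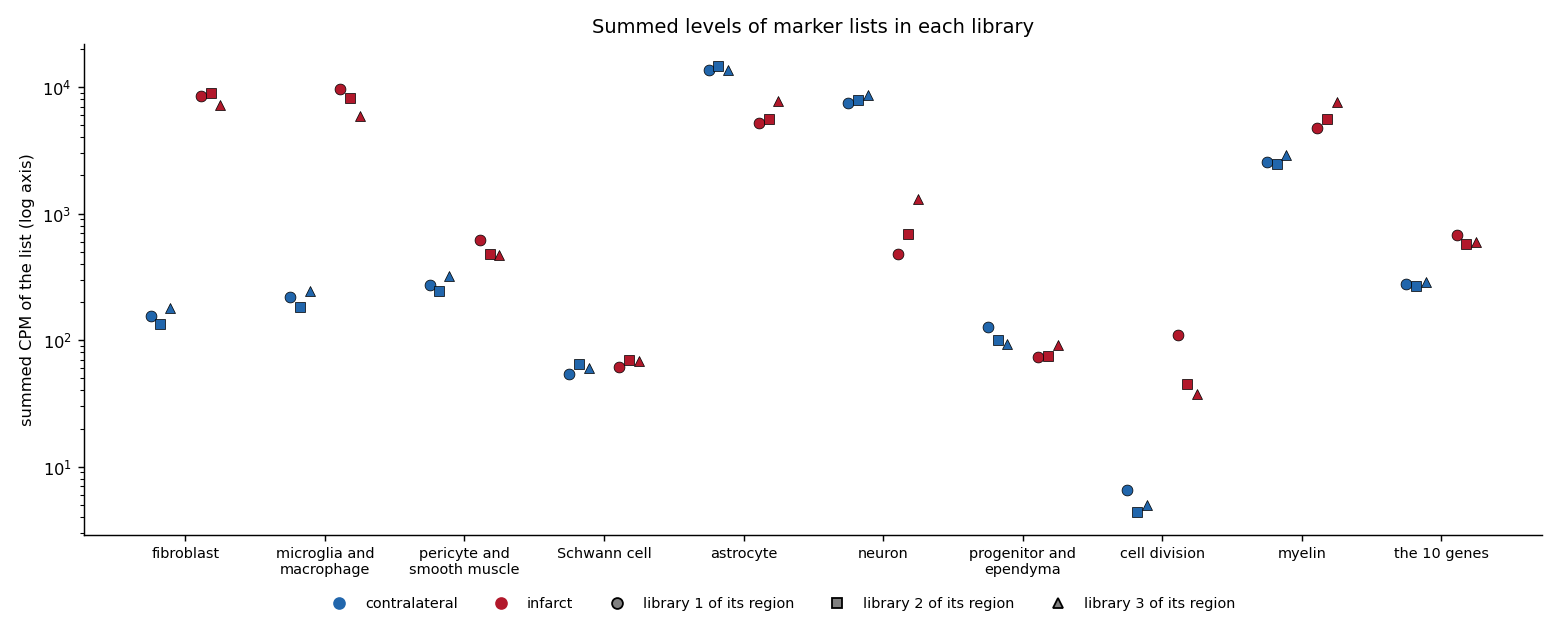
Summed CPM, on a log axis, of each marker list and of the 10 genes in every library, with contralateral cortices in blue and infarcts in red. Fibroblast markers sum to 7215 CPM or more in every infarct and 180 CPM or less in every contralateral cortex, neuron markers lie lower in the infarcts, and Schwann cell markers overlap.

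The 4 transcription factor genes divided. *Sox10* (ENSMUSG00000033006, chromosome 15, 79154908 to 79165240, minus strand), the HMG-box factor of the whole lineage, had 10.1, 13.1 and 17.2 CPM in infarct libraries 1, 2 and 3 and 7.68, 8.27 and 8.95 CPM in contralateral libraries 1, 2 and 3. The infarcts were all above the contralateral cortices. Its log2 fold change was 0.70 with a standard error of 0.23 (adjusted *p* = 0.0209), a 1.63-fold difference (95% interval 1.14 to 2.32) that passed the test but not the fold change threshold. It no longer passed without infarct 3 (0.50, adjusted *p* = 0.0776), contralateral cortex 1 (0.64, adjusted *p* = 0.0796) or contralateral cortex 2 (0.69, adjusted *p* = 0.0614). Of 6 tested Schwann cell markers of 8, 1 was higher (*Egr2*, which macrophages also express) and 1 lower (*Scn7a*), and their summed level was 60.9 to 69.7 CPM in the infarcts and 54.4 to 64.8 CPM in the contralateral cortices. *Foxd3*, a neural crest and Schwann cell precursor factor, had at most 1 count in any library.

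*Olig2* (ENSMUSG00000039830, chromosome 16, 91225457 to 91228677, plus strand), the bHLH factor that specifies the lineage, had 2.79, 3.45 and 5.53 CPM in infarct libraries 1, 2 and 3 and 4.86, 6.64 and 8.31 CPM in contralateral libraries 1, 2 and 3. Infarct 3 lay above contralateral cortex 1, so the regions overlapped. This came to a log2 fold change of -0.73 with a standard error of 0.32 (adjusted *p* = 0.0693), with a 95% interval of the fold change from 0.365 to 0.991. Without infarct 3, *Olig2* was called lower, with a log2 fold change of -1.05 (adjusted *p* = 0.0143). Without contralateral cortex 1 it passed the test but not the fold change threshold (-0.93, adjusted *p* = 0.0475). Counts were few, with 35, 47 and 81 in the infarcts and 93, 102 and 90 in the contralateral cortices.

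*Olig1* (ENSMUSG00000046160, chromosome 16, 91269772 to 91271933, plus strand), the neighboring paralog needed for maturation and repair, had 33.9, 32.2 and 57.9 CPM in the infarcts and 46.1, 31.4 and 56.0 CPM in the contralateral cortices. The libraries of both regions covered the same range. The log2 fold change was -0.11 (adjusted *p* = 0.759), and the 95% interval of the fold change, 0.598 to 1.44, includes changes of moderate size in either direction. *Nkx2-2* (ENSMUSG00000027434, chromosome 2, 147177546 to 147194243, minus strand), a homeodomain factor that promotes differentiation, had 2.79, 3.52 and 5.46 CPM in the infarcts and 2.87, 3.19 and 5.63 CPM in the contralateral cortices. Its log2 fold change was 0.04 (adjusted *p* = 0.937), with a 95% interval of the fold change from 0.583 to 1.80. Its libraries held 35 to 80 counts, and a change of any size within that interval remains possible.

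The 3 genes of cells between precursor and myelinating oligodendrocyte differed from each other. *Enpp6* (ENSMUSG00000038173, chromosome 8, 46986887 to 47096762, plus strand), which encodes a choline-specific phosphodiesterase and marks newly forming oligodendrocytes, had the highest fold change of the members. It had 8.76, 13.3 and 14.6 CPM in infarct libraries 1, 2 and 3 and 2.14, 2.28 and 2.49 CPM in contralateral libraries 1, 2 and 3. The lowest infarct was well above the highest contralateral cortex. Between the regions, the log2 fold change was 2.41 with a standard error of 0.26 (adjusted *p* = 3.14e-05), a 5.32-fold difference (95% interval 3.54 to 8.00). It was between 2.28 and 2.62 in the alternative analyses, and the call was kept in all 16 of them.

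*Bcas1* (ENSMUSG00000013523, chromosome 2, 170346991 to 170427845, minus strand), a gene of early myelinating oligodendrocytes, had 96.5, 109 and 137 CPM in the infarcts and 49.0, 74.6 and 50.4 CPM in the contralateral cortices. Contralateral cortex 2 stood above the other two but below every infarct. This came to a log2 fold change of 0.98 with a standard error of 0.20 (adjusted *p* = 0.00206), a 1.97-fold difference (95% interval 1.43 to 2.70) that missed the threshold of 2. The gene was called without infarct 1 (1.10), infarct 2 (1.03) or contralateral cortex 2 (1.19). *Gpr17* (ENSMUSG00000052229, chromosome 18, 31942997 to 31949636, minus strand), the G protein-coupled receptor of committed precursors, had 9.16, 14.7 and 24.2 CPM in the infarcts and 21.6, 19.5 and 21.2 CPM in the contralateral cortices. Infarct 3 was above every contralateral cortex and the other infarcts were below them. The log2 fold change was -0.37 with a standard error of 0.30 (adjusted *p* = 0.307), with a 95% interval of the fold change from 0.478 to 1.25. Without infarct 3 it was -0.78 (adjusted *p* = 0.0114), still short of a fold change of 2, and without infarct 1 it was -0.08.

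The remaining members encode a secreted and a membrane protein of precursors. *C1ql1* (ENSMUSG00000045532, chromosome 11, 102939264 to 102946688, minus strand), whose C1q-like protein binds the adhesion receptor ADGRB3 and which some neurons also express, had 42, 20 and 57 counts in infarct libraries 1, 2 and 3 and 12, 6 and 15 counts in contralateral libraries 1, 2 and 3. This came to 3.35, 1.47 and 3.89 CPM and 0.627, 0.391 and 1.38 CPM, so infarct 2 was only just above contralateral cortex 3. Between the regions, the log2 fold change was 1.92 with a standard error of 0.54 (adjusted *p* = 0.0109), with a 95% interval of the fold change from 1.62 to 8.78. The call was lost without contralateral cortex 1 (adjusted *p* = 0.0508) or 2 (adjusted *p* = 0.0506). *Adgrb3* was lower in the infarcts, at 28.0 ± 18.8 CPM compared with 134 ± 4.45 CPM (SD, n = 3), a log2 fold change of -2.26 (adjusted *p* = 0.00271). *Lhfpl3* (ENSMUSG00000106379, chromosome 5, 22746059 to 23275597, plus strand), a tetraspan membrane protein gene, had 15.4, 25.2 and 28.6 CPM in the infarcts and 33.3, 26.6 and 30.7 CPM in the contralateral cortices. Infarct 3 lay above contralateral cortex 2, and the log2 fold change was -0.39 with a standard error of 0.23 (adjusted *p* = 0.163).

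The infarcts differed among themselves. Infarct 3 was the highest of the 3 infarcts for 9 of the 10 genes and infarct 1 the lowest for 7, whereas in the contralateral cortices the highest library was contralateral cortex 3 for 6 genes, 1 for 3 and 2 for 1. *Pdgfra*, *Olig1* and *C1ql1* did not rise in order from infarct 1 to infarct 3. How many of all genes ranked the infarcts in this way was not counted, so the ranking cannot be read as a trait of the members. Summed myelin genes rose from infarct 1 to infarct 3, at 4739, 5568 and 7625 CPM in infarct libraries 1, 2 and 3. So did summed neuron markers, at 481, 691 and 1306 CPM, and summed astrocyte markers, at 5228, 5597 and 7704 CPM. The summed microglia and macrophage markers had the reverse order, at 9568, 8104 and 5901 CPM. That sum was mostly *Lyz2* (7853, 6830 and 4665 CPM), and not every marker followed it, *P2ry12* being highest in infarct 3 (49.0, 40.4 and 58.6 CPM). Summed cell division markers were 110, 44.6 and 37.6 CPM, and all 7 tested of 8 were higher in the infarcts than in the contralateral cortices. The part of tissue composition in these differences was not tested. For *Gpr17*, the highest infarct had 2.64 times the CPM of the lowest, whereas the contralateral cortices lay close together, and the SD was 47.4% and 5.25% of the mean. For *Bcas1*, the SD was 18.3% and 24.8% of the mean.

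Levels of members relative to each other were taken as ratios of counts within a library, which were chosen after the values were seen. For each count of *Sox10*, *Enpp6* had 0.866, 1.02 and 0.849 counts in infarct libraries 1, 2 and 3, and 0.279, 0.276 and 0.278 in contralateral libraries 1, 2 and 3. *Olig2* went the other way, with 0.276, 0.264 and 0.321 counts per count of *Sox10* in the infarcts and 0.633, 0.803 and 0.928 in the contralateral cortices. For each count of *Gpr17*, *Enpp6* had 0.957, 0.905 and 0.605 counts in the infarcts and 0.0993 to 0.117 in the contralateral cortices. None of these ratios overlapped between the regions. The pairs were picked from genes with unlike fold changes, so their separation is not a result of its own. How many ratios of other gene pairs overlapped was not counted, and for single genes the regions overlapped for 27.7%. With 3 libraries against 3, an exact two-sided permutation test cannot give a *p* under 0.1, so no test was made.

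Set beside the 14 myelin genes, the 9 members other than *Pdgfra* summed to 38.5, 38.8 and 38.6 CPM per 1000 CPM of myelin genes in infarct libraries 1, 2 and 3, and to 66.2, 70.0 and 63.8 in the contralateral cortices. This sum is mostly *Bcas1* and *Olig1*. *Enpp6* on its own went the other way, with 1.85, 2.39 and 1.92 CPM per 1000 CPM of myelin genes in the infarcts and 0.842, 0.922 and 0.858 in the contralateral cortices. The summed level of these 9 members was 183, 216 and 295 CPM in the infarcts and 168, 173 and 185 CPM in the contralateral cortices, of which infarct 1 lay below contralateral cortex 3. *Pdgfra* alone held 50.3% to 73.1% of the summed CPM of the 10 genes in the infarcts and 35.3% to 39.7% in the contralateral cortices.

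**Figure D3:**
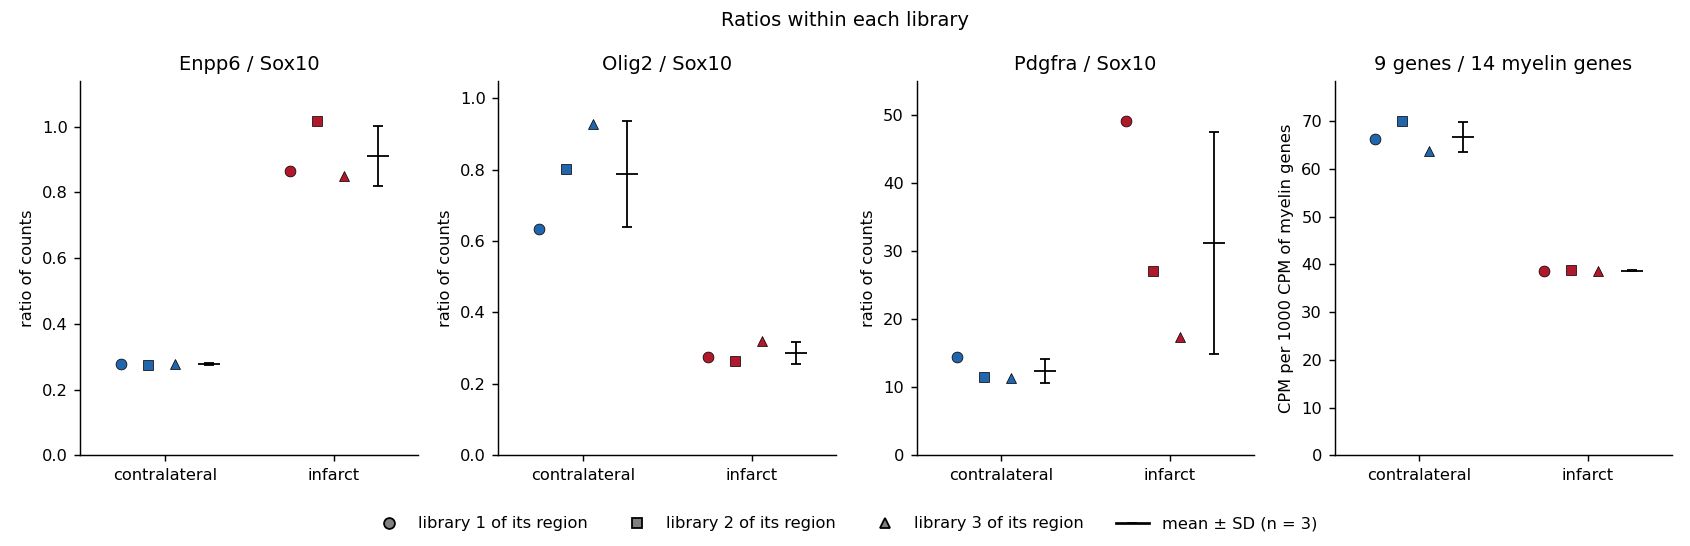
Ratios within each library, with contralateral cortices in blue, infarcts in red and bars for the mean ± SD of 3 libraries: counts of *Enpp6*, *Olig2* and *Pdgfra* per count of *Sox10*, and summed CPM of the 9 members other than *Pdgfra* per 1000 CPM of 14 myelin genes. *Enpp6* and *Pdgfra* lie higher in the infarcts relative to *Sox10*, and *Olig2* and the sum of the 9 members, which is mostly *Bcas1* and *Olig1*, lie lower.

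Levels were compared between genes as CPM per kilobase of exon. In the contralateral cortices, the order of mean levels was *Olig1* (20.6 ± 5.72), *Bcas1* (15.4 ± 3.81), *Pdgfra* (10.2 ± 0.797), *Lhfpl3* (9.41 ± 1.05), *Gpr17* (3.76 to 4.15 over the libraries), *Sox10* (2.72 ± 0.209), *Olig2* (2.61 ± 0.682), *Nkx2-2* (1.36 ± 0.525), *C1ql1* (0.544 ± 0.352) and *Enpp6* (0.359 ± 0.0275 CPM per kilobase, SD, n = 3). Neighbors in this order overlapped between libraries except *Bcas1* and *Pdgfra*, *Lhfpl3* and *Gpr17*, *Gpr17* and *Sox10*, and *Nkx2-2* and *C1ql1*. In the infarcts, *Pdgfra* came first (38.2 ± 10.2 CPM per kilobase), then *Bcas1* (30.3 ± 5.52) and *Olig1* (19.1 ± 6.67). *Enpp6*, the lowest of the 10 in the contralateral cortices, reached 1.91 ± 0.478 CPM per kilobase in the infarcts and overlapped with *C1ql1* (1.97 ± 0.862) and *Olig2* (1.55 ± 0.565), and *Nkx2-2* was the lowest (1.36 ± 0.480). The order in the infarcts was separated between neighbors only at *Olig1* and *Lhfpl3* (7.17 ± 2.14).

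Other lists of the lineage place these values, beside 25.7% of all genes called higher and 20.9% called lower. Of 12 other precursor genes, 1 was higher in the infarcts and 5 were lower, with a median log2 fold change of -0.48. *Matn4*, a matrilin of the extracellular matrix, was the higher one, at 54.8 ± 18.5 CPM and 6.02 ± 0.811 CPM (SD, n = 3), a log2 fold change of 3.18 (adjusted *p* = 6.54e-06). *Megf11* and *Pcdh15*, both membrane adhesion protein genes, were the most lowered, with log2 fold changes of -2.50 and -2.02 (adjusted *p* = 3.58e-05 and 0.00108). Neurons express both of these as well, and neuron markers were lower in the same libraries. The part of neurons or of other cells in the 5 lowered genes was not tested. Of 12 other genes of committed precursors and newly formed oligodendrocytes, 5 were higher and 2 lower, with a median of 0.51. *Cnksr3*, a kinase scaffold gene, and *Snx1*, a sorting nexin gene, had log2 fold changes of 2.12 and 1.21, and *Cyfip2*, an actin regulator abundant in neurons, and *Tmem163*, a zinc transporter gene, had -2.40 and -2.36.

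Of 14 myelin genes, 5 were higher and 0 lower, beside 25.7% and 20.9% of all genes, with a median log2 fold change of 0.95. By adjusted *p* alone, without the fold change threshold, 11 were higher and 0 lower, beside 34.2% and 30.8% of all genes. The counts were the same at an unadjusted *p* under 0.05 in edgeR, where the share of all genes was not counted. DESeq2 and limma voom called 0 myelin genes lower. *Cldn11*, the tight junction claudin of myelin, had 264 ± 23.6 CPM in the infarcts and 51.5 ± 9.40 CPM in the contralateral cortices (SD, n = 3), a log2 fold change of 2.36 (adjusted *p* = 2.45e-06), and *Aspa*, which cleaves N-acetylaspartate, had 64.5 ± 9.77 and 20.4 ± 1.02 CPM, a log2 fold change of 1.66 (adjusted *p* = 1.76e-05). Leptomeningeal and other barrier cells also make *Cldn11*. Without infarct 1, 9 myelin genes were higher.

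Of 14 other transcriptional regulators, 13 were tested, with a median log2 fold change of 0.12. Of these, 3 were higher and 1 was lower, beside 25.7% and 20.9% of all genes. *Nkx6-2*, a homeobox gene of myelinating oligodendrocytes, had 20, 12 and 33 counts in the infarcts and 14, 2 and 5 counts in the contralateral cortices, a log2 fold change of 1.79 (adjusted *p* = 0.0244). *Tcf7l2*, the Wnt effector that is switched on as oligodendrocytes begin to differentiate, had 19.6, 27.0 and 21.4 CPM in the infarcts and 8.25, 5.47 and 6.37 CPM in the contralateral cortices, a log2 fold change of 1.75 (adjusted *p* = 8.00e-05). *Sox5*, which holds precursors immature and is also made by deep-layer neurons, was lower, with a log2 fold change of -2.19 (adjusted *p* = 2.01e-05). *Hes5*, a Notch target, did not pass the filter on low counts. For this list and the lineage lists above, which cells carried the higher or lower levels was not tested. Without infarct 1, 5 regulators were higher, and without contralateral cortex 2, 2 were lower.

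**Figure D4:**
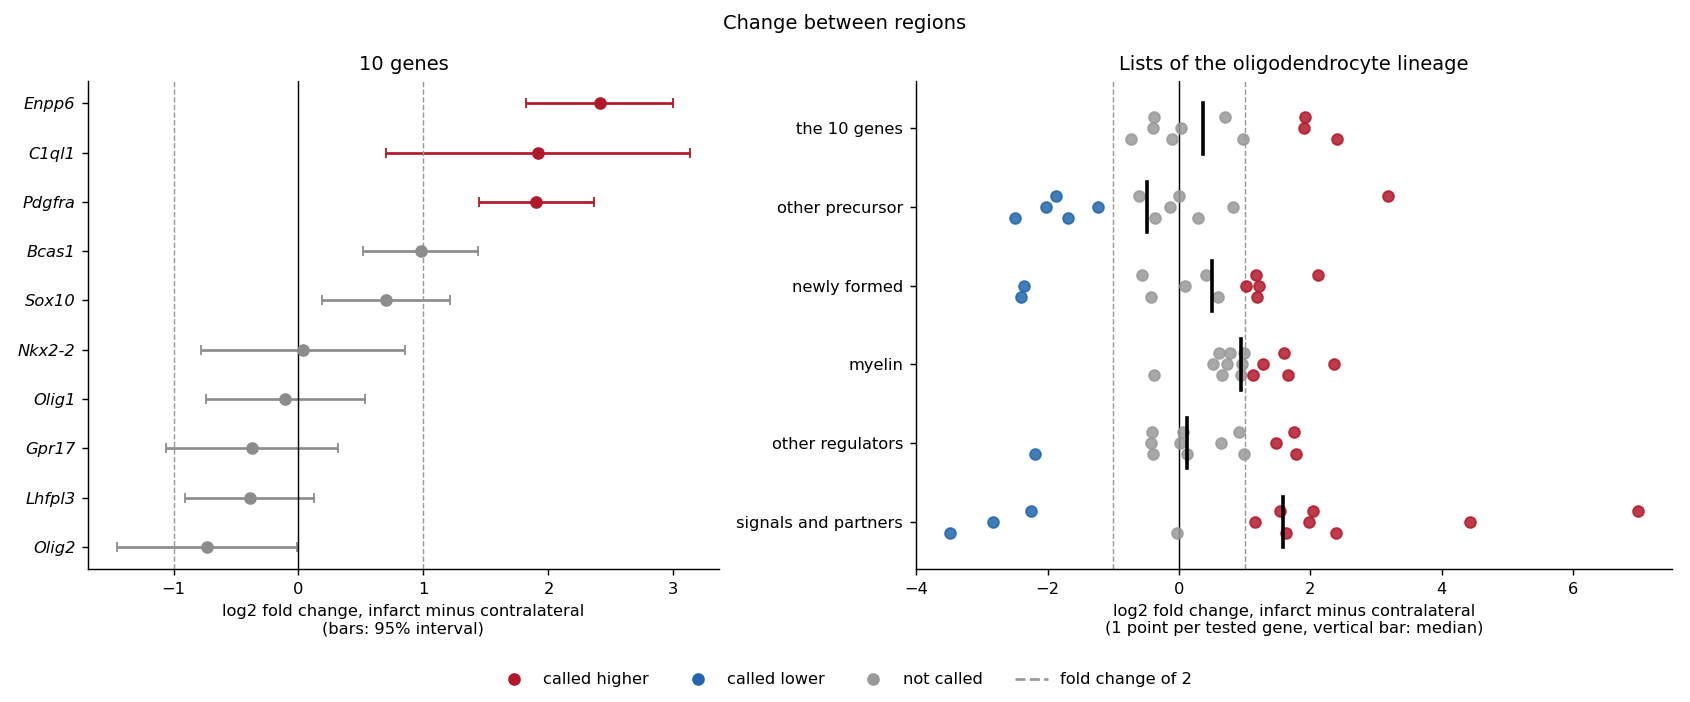
Log2 fold changes, infarct minus contralateral, of the 10 genes with 95% intervals (left) and of each tested gene of the lineage lists with the median as a bar (right). Red points are called higher, blue lower and gray neither, and dashed lines mark a fold change of 2. *Enpp6*, *C1ql1*, and *Pdgfra* are called. Of the 12 other precursor genes, 5 are called lower and 1 higher, beside 20.9% and 25.7% of all genes.

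Of 12 signals and partners of member proteins, 8 were higher and 3 lower, with a median log2 fold change of 1.58, beside 46.6% of all genes called in either direction. *Pdgfa*, which encodes the main ligand of PDGFRα on precursors, had 32.3, 47.9 and 43.5 CPM in the infarcts and 41.3, 39.1 and 46.1 CPM in the contralateral cortices. The regions overlapped, with a log2 fold change of -0.03 (adjusted *p* = 0.893) and a 95% interval of the fold change from 0.742 to 1.29. *Pdgfc*, another ligand of the same receptor, had 39.3, 44.9 and 29.4 CPM in the infarcts and 11.8, 7.36 and 8.21 CPM in the contralateral cortices, a log2 fold change of 2.05 (adjusted *p* = 4.89e-05). *Pdgfb*, whose product binds both PDGF receptors, had a log2 fold change of 1.53 (adjusted *p* = 7.78e-05). *Cxcr4*, a chemokine receptor of precursors and of leukocytes, and *Igf1*, a growth factor made by microglia and macrophages, had the highest fold changes of the list, 6.99 and 4.42 on the log2 scale (adjusted *p* = 1.64e-07 for both). *Lingo1* and *Nrg1*, a brake on differentiation and an axonal signal, fell by 3.49 and 2.83 on the log2 scale (adjusted *p* = 4.88e-05 and 4.42e-04), and neurons express both.

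Each member was matched to the gene with the most similar profile, by the root mean square distance of centered log2 CPM (with 0.5 CPM added) over the 6 libraries among 14898 other genes with a mean of at least 1 CPM. The nearest gene to *Sox10* was *Ugt8a* (distance 0.0564) and that to *Bcas1* was *Ermn* (0.112), both genes of the myelin list. For the others they were *Prr11* for *Pdgfra* (0.0415, with a fitted log2 fold change of 2.44), *Lrrc75b* for *Lhfpl3* (0.0392), *Sema4g* for *Gpr17* (0.0967), *Vash1* for *Olig2* (0.0988), *Mea1* for *Olig1*, *Slc14a1* for *Enpp6* (0.137), *Ntsr2* for *Nkx2-2* (0.151) and *Serpind1* for *C1ql1* (0.205). With 6 libraries in 2 regions, such distances describe these libraries only.

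Markers of progenitors and ependyma were measured because the wall of the ventricle holds cells that make oligodendrocytes. Of 6 tested markers of 8, 4 were higher in the infarcts and 2 lower, beside 25.7% and 20.9% of all genes. The lower ones were the immature neuron genes *Dcx* (log2 fold change -1.78, adjusted *p* = 8.06e-05) and *Sox11* (-1.26, adjusted *p* = 0.00339). *Foxj1*, the regulator of motile cilia, had 84, 124 and 220 counts in infarct libraries 1, 2 and 3 and 22, 15 and 32 in the contralateral cortices, and *Ccdc153* had 10, 10 and 33 counts in the infarcts and 0 in every contralateral library. Infarct 3 was the highest for *Foxj1*, *Ccdc153* and *Nes*. *Rarres2*, the remaining higher marker, was highest in infarct 1, at 7.41, 4.85 and 6.01 CPM in infarct libraries 1, 2 and 3. The part of such cells in the members' levels was not tested.

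In all, 6 members share exon bases with a gene on the other strand. The libraries keep strand, but whether the counting used it is not given in the sources used here, and without it the reads of such a pair could not be told apart over those bases. The shared bases are 17.6% of the exons of *Lhfpl3* (with *A930003O13Rik*), 9.67% of those of *Nkx2-2* (*Nkx2-2os*), 11.7% and 0.901% of those of *Bcas1* (*Bcas1os1* and *Bcas1os2*), 3.62% of those of *Gpr17* (*Lims2*) and 7.26% of those of *Olig1* (*Gm15966*, with 0 counts). *Pdgfra* shares 4.55% and 1.66% with *Gm42802* and *Gm42803*, which together had 1 count, and 0.299% with *Mir7025* on its own strand, which had 0. The partners' counts over all libraries came to 15.9% of those of *Gpr17* for *Lims2* and to 5.18% or less for the others.

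**Figure D5:**
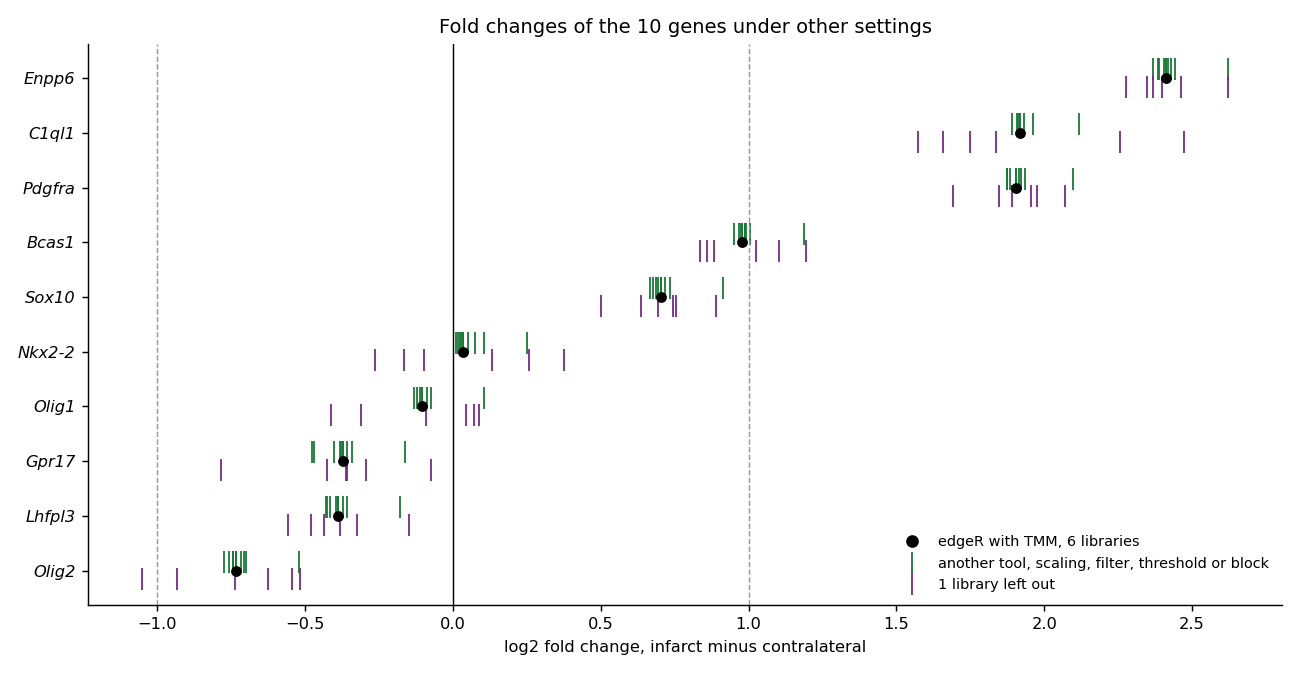
Log2 fold changes of the 10 genes from edgeR with TMM over 6 libraries (black), under other tools, scalings, filters, thresholds or the block (green) and with 1 library left out (purple). *Enpp6* stays between 2.28 and 2.62 and *Pdgfra* between 1.69 and 2.10, whereas the values of *Olig1* and *Nkx2-2* fall on both sides of 0.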

How the data were processed

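The authors made stranded mRNA libraries, sequenced paired reads on a NextSeq500, trimmed them with Trimmomatic 0.32, aligned them to GRCm38 with STAR 2.5.2b and counted them with htseq-count. The deposited values are raw counts per Ensembl gene, without normalization. The 5 tallies of htseq-count that name no gene were left out, which kept 65.7% to 73.4% of what a library tallied. The version, annotation and strand setting of htseq-count are not given in the sources used here. Identifiers were matched to GENCODE M21 (45229 of 46078).

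edgeR 4.0.16 was run on these counts in R 4.3.3 (filterByExpr, TMM, robust quasi-likelihood, region as the only term), on 15554 genes. Calls need an adjusted *p* under 0.05 and a log2 fold change beyond 1. Error is the SD of 3 libraries or the fitted standard error, and counting precision follows the depth given in the report. The study used DESeq2, run here as an alternative (1.42.0), with limma voom (3.58.1), RLE, upper quartile and library total scaling, other filters and thresholds, the replicate number as a block, and each library left out. The procedure was tested on simulated data.

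Members and lists were chosen with earlier results of these data known. The text names all members, the 2 most changed genes in each called direction of a lineage list, the PDGF ligands and *Adgrb3*, defining markers of other cell types, the gene with the nearest profile (pseudocount 0.5 CPM) and genes with shared exons. *Cspg4*, *Hes5* and the markers *Dcx*, *Sox11*, *Nes*, *Rarres2*, *Slc6a13*, *Lyz2* and *P2ry12* were added after their values were seen. The marker lists were fibroblast, pericyte and smooth muscle, Schwann cell, astrocyte, neuron, microglia and macrophage, progenitor and ependyma, and cell division, of which 1 marker is not reported here. Summaries and plots used Python 3.11.15, pandas 2.3.3 and matplotlib 3.10.9.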

Additional observations from a re-analysis of the deposited data

How the results depend on the processing

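The calls of *Pdgfra* and *Enpp6* held in all 16 alternatives run for each. The number of members called higher was 5 without the fold change threshold, and 2 to 4 with 1 library left out. The number called lower was 0 in every alternative except 1 without infarct 3. Scaling by library totals shifted the log2 fold changes upward, by 0.20 at the median over all genes, and *Bcas1* was then called (1.19). *C1ql1* lost its call with glmTreat against a fold change of 2 (adjusted *p* = 0.0611). For *Olig1* the sign turned with library totals (0.10) and without infarct 1 (0.04), infarct 2 (0.07) or contralateral cortex 3 (0.089), its leave-one-out range being -0.41 to 0.089. For *Nkx2-2* it turned without infarct 3 (-0.26), contralateral cortex 1 (-0.16) or contralateral cortex 2 (-0.10), with a range of -0.26 to 0.38. Neither gene was called in any of these. The cause was not tested.

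With library totals, 2 other precursor genes, 8 myelin genes and 5 regulators were higher. Without the fold change threshold, 2 other precursor genes, 11 myelin genes and 6 regulators were higher and 2 regulators lower. With glmTreat, 1 newly formed gene, 3 myelin genes and 1 regulator were higher. With at least 10 counts in every library, 1 newly formed gene was lower, since fewer genes were tested, *C1ql1* was not tested and *Bcas1* was called (1.01). With DESeq2, 2 regulators were lower. With 1 library left out, 4 to 9 myelin genes and 2 to 5 regulators were higher, and 1 to 2 regulators were lower.

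Deviations of same-numbered libraries from the mean of their region correlated at -0.21, 0.11 and 0.02. Of 6 libraries, 1 correlated best with its own number. With 3 libraries per region, such correlations cannot show whether same-numbered libraries came from the same mouse. With the replicate number as a block, 3 members were higher and 0 lower, no list count moved, and 3945 and 3222 of all genes were called higher and lower, compared with 3999 and 3256. Under the block, *Olig2* passed the test but not the fold change threshold (-0.77, adjusted *p* = 0.0296). Depth gave *C1ql1* 6 to 57 counts a library.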
